A study of Mus musculus with 15 samples.

Results

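The peaks described here lie in 3 windows of the mouse genome, build mm9, drawn around the genes of the intestinal identity factors Cdx1, Cdx2 and Hnf4a. The windows were chromosome 18 from 61155000 to 61220000 (Cdx1, 65 kb), chromosome 5 from 148090000 to 148145000 (Cdx2, 55 kb) and chromosome 2 from 163305000 to 163425000 (Hnf4a, 120 kb). Every peak that overlapped a window was a member, whatever its score. This gave 620 peaks of 778471 in the 12 deposited lists, of which 142 lay at Cdx1, 77 at Cdx2 and 401 at Hnf4a.

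CDX1 and CDX2 are caudal-type homeobox transcription factors, and CDX2 specifies intestinal identity in the embryo and maintains it in the adult epithelium. HNF4A is a nuclear receptor that, with CDX2, occupies enhancers of enterocyte genes such as those for digestion and lipid handling. ATOH1 is the basic helix-loop-helix factor that commits crypt progenitors to the secretory lineage and binds E-box sequences. The histone mark H3K4me2 lies at promoters and enhancers, H3K27ac marks those that are active, and DNase I hypersensitive sites (DHS) are stretches of open chromatin.

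All mice were C57BL/6, with no age in the labels. H3K4me2 was mapped in 7 libraries. Stem cells (ISC, 1 library) were sorted for green fluorescent protein from Lgr5-eGFP-Cre mice. Secretory progenitors (Sec-Pro) were enriched in crypts by loss of Rbpj, the DNA-binding partner of Notch (replicate 1), or by the Notch inhibitor dibenzazepine, DBZ (replicate 2). Enterocyte progenitors (Ent-Pro, 2 libraries) and mature enterocytes (ENT, 1 library) came from crypts and villi of Atoh1-/- mice, which have no secretory cells, and goblet cells (GOB, 1 library) from Rbpj-/- villi. H3K27ac and DHS were mapped in 1 library each of Sec-Pro and Ent-Pro, and ATOH1 was mapped by its FLAG tag in a single Sec-Pro library. The labels do not say which kind of Sec-Pro served for H3K27ac, DHS and ATOH1. The Sec-Pro H3K4me2 replicates differ in how Notch was blocked, so their spread includes that difference. Nothing says whether the Ent-Pro replicates came from separate animals, and their spread may be technical. Lineage cannot be told apart from the Atoh1 deletion or the Notch block.

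The ISC list stood apart from the other 6 H3K4me2 lists. Its highest score was 37.7, where those of the other lists of all assays lay between 218 and 508, and its widest peak was 5043 bp. Read depth is unknown, and a list may lack a peak for want of reads. Scores are the authors' own, and they are given here with the score percentile, the percent of the peaks of the same list with a score at or below it. For a region made of several peaks, the percentile in a list is that of its highest-scoring peak there. Peaks were not assigned to exons, introns or promoters, because no annotation of mm9 was used. In RefSeq, build GRCm38.p6, the nearest neighbours are Slc6a7 and Gm52351 for Cdx1, Pdx1 and Urad for Cdx2, and R3hdml and Ttpal for Hnf4a, and a window may hold parts of them.

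All 3 loci carried H3K4me2 over a large share of their length in every population. At Cdx2, H3K4me2 peaks covered 33.2% of the window in ISC, 40.7% and 42.8% in the Sec-Pro replicates, 42.0% and 39.0% in the Ent-Pro replicates, 40.7% in GOB and 41.4% in ENT. Outside ISC these values lay within 4 percentage points of each other. At Hnf4a the covered share was 17.2% in ISC, 30.2% and 36.1% in Sec-Pro, 39.8% and 32.7% in Ent-Pro, 42.7% in GOB and 40.3% in ENT. The mature populations had the highest shares at this locus. At Cdx1 it was 17.5% in ISC, 23.4% and 32.3% in Sec-Pro, 31.7% and 26.9% in Ent-Pro, 33.6% in GOB and 23.8% in ENT. Here ENT lay close to the lower Sec-Pro replicate and GOB was the highest.

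The genome holds few stretches covered as densely. When each chromosome was divided from its start into consecutive stretches of the length of a window, at most 14 of 21974 stretches were covered by H3K4me2 at least as much as the Hnf4a window in any list. For the Cdx2 window this number ranged from 3 of 47956 in ISC to 103 in ENT. For the Cdx1 window it ranged from 109 of 40577 in ISC to 647 in ENT. Many stretches held no H3K4me2 peak, from 45.3% (Hnf4a length, Sec-Pro replicate 2) to 65.5% (Cdx2 length, ISC). The windows were drawn around chosen genes, and windows around other genes were not compared. H3K27ac covered 41.8% of the Cdx2 window in Sec-Pro and 42.8% in Ent-Pro, 44.3% and 43.8% of the Hnf4a window, and 29.4% and 35.2% of the Cdx1 window. In the plot of covered shares, the ISC points are the lowest at every locus.

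**Figure D1:**
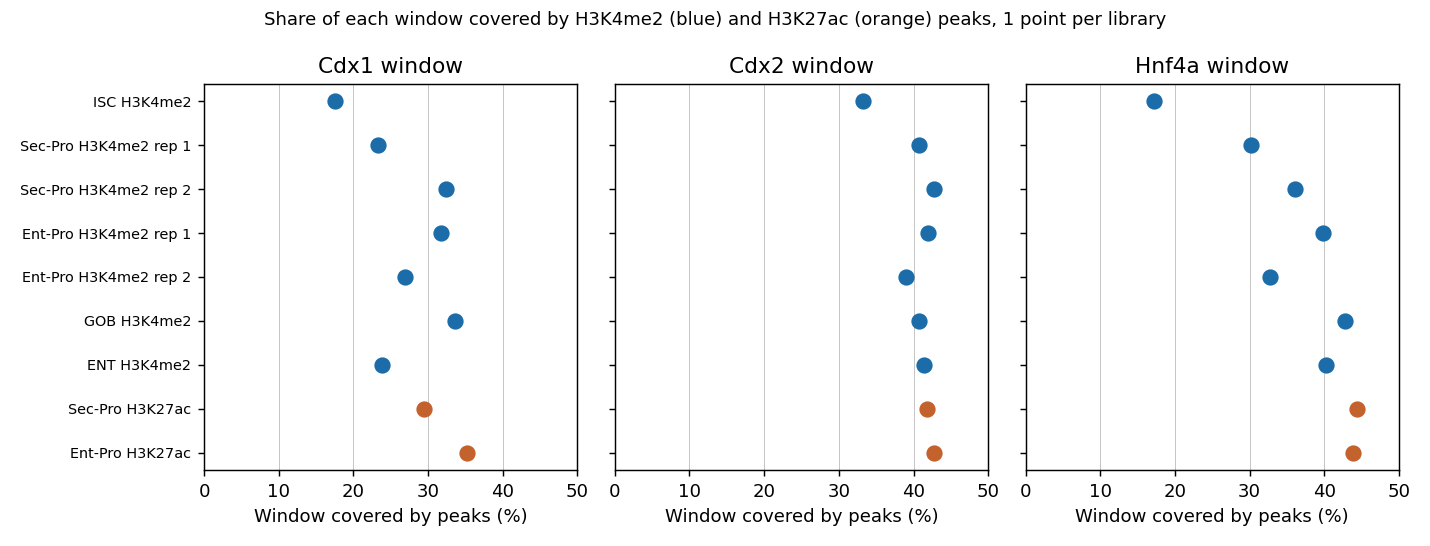
Share of each window covered by peaks (x axis, percent) in each H3K4me2 (blue) and H3K27ac (orange) list, 1 point per library. H3K4me2 covers between 17.2% of the Hnf4a window in ISC and 42.8% of the Cdx2 window in Sec-Pro replicate 2, and the ISC library is the lowest H3K4me2 value at each locus.

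The peaks of the 7 H3K4me2 lists, joined where they overlapped, formed 82 regions in the windows. Of these, 19 (23.2%) had a peak in all 7 lists, against 24.5% of the 112365 regions of the genome. That share is near the background. They were 4 of 23 regions at Cdx1, 2 of 5 at Cdx2 and 13 of 54 at Hnf4a. A single list supplied 31 of the 82 regions. The median region was 407.5 bp long here and 458 bp in the genome. The longest region was 9731 bp at Cdx1, 19847 bp at Cdx2 and 11720 bp at Hnf4a.

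The Cdx2 window held 1 long domain that every population shared. The domain ran from 148110196 to 148130042 on chromosome 5, was 19847 bp long, and ranked 7th in length of the 112365 regions. Only 206 regions of the genome reached 10 kb. Peaks covered 97.6% and 98.9% of the domain in the Sec-Pro replicates, 99.0% and 91.3% in Ent-Pro, 96.4% in GOB, 98.4% in ENT and 82.8% in ISC. In Ent-Pro replicate 1 the domain was a single peak of 19654 bp, the 3rd widest of that list. ISC had it in 13 pieces and the other lists in 2 or 3. The percentile of its highest-scoring peak was between 95.3 and 99.8 in all 7 lists, with a mean of 97.7. Single pieces ranked lower, from 12.4 to 95.6 in ISC, and 1 piece in Ent-Pro replicate 2 was at 1.20.

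The ends of the Cdx2 domain fell at nearly the same positions in all lists but ISC. Over those 6 lists, the first peak began between 148110196 and 148110236, within 40 bp, and the last peak ended between 148129790 and 148130042, within 252 bp. With ISC the ranges were 379 and 397 bp. H3K27ac had the same outline. It formed 1 peak from 148110217 to 148129766 in Sec-Pro and 1 from 148110203 to 148129856 in Ent-Pro. Each was the 2nd widest H3K27ac peak of its list, with score ranks of 94 of 74483 in Sec-Pro and 186 of 68764 in Ent-Pro.

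RefSeq lists 1 start for Cdx2 in GRCm38.p6, and its upstream sequence is shown because ATOH1 binds E-boxes and ATOH1 peaks lay inside the Cdx2 domain. It is the 250 bases before the start at chr5:147307250-147307499 on the minus strand, written 5′ to 3′. Capitals mark the E-box motif CANNTG, which reads alike on both strands.
Cdx2 upstream: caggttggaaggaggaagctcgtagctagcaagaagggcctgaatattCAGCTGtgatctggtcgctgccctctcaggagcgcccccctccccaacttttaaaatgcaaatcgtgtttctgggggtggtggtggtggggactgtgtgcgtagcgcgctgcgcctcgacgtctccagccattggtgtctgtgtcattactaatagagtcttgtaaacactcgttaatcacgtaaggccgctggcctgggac
The 1 match is the variant CAGCTG, beginning 202 bases before the start. Of 32841 RefSeq promoter sequences cut to the same 250 bases, 66.2% hold CANNTG and 13.0% hold CAGCTG. A match is a description of letters. Positions were not converted between builds, so whether this stretch lies under a peak was not tested.

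Open chromatin inside the Cdx2 window was shared by both progenitors at each of its 7 DHS sites. None of the 9 Sec-Pro DHS peaks lacked an Ent-Pro counterpart, and none of the 7 Ent-Pro peaks lacked a Sec-Pro one. Over the whole lists 14.6% of Sec-Pro and 29.8% of Ent-Pro DHS peaks had no counterpart. The strongest site lay at 148111193 to 148111714, near the start of the domain, with scores of 108 in Sec-Pro and 138 in Ent-Pro and percentiles of 83.3 and 88.3. The next in Ent-Pro lay at 148117891 to 148119020, with percentiles of 67.7 in Sec-Pro and 80.9 in Ent-Pro. A site at 148105681 to 148106019, outside the domain, had percentiles of 62.6 and 73.9. One site was ranked higher in Sec-Pro, at 148116378 to 148116804, with percentiles of 49.2 against 9.85. H3K4me2 was interrupted over the site at 148117891 in 4 of 7 lists, namely ISC, both Sec-Pro and Ent-Pro replicate 2. All 7 sites lay in H3K4me2 regions present in all 7 lists.

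The second Cdx2 region with a peak in all 7 lists ran from 148103309 to 148106688. Its score percentile was 86.2 in ISC, 67.9 and 80.9 in Sec-Pro, 78.1 and 75.8 in Ent-Pro, 85.9 in GOB and 88.2 in ENT. H3K27ac there had percentiles of 88.3 in Sec-Pro and 89.5 in Ent-Pro. The remaining region named by its rank, from 148134881 to 148135219, was weak. Its percentiles were 53.6 in Sec-Pro replicate 2, 52.3 and 3.93 in Ent-Pro and 23.8 in ENT, and the other 3 lists had no peak there.

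**Figure D2:**
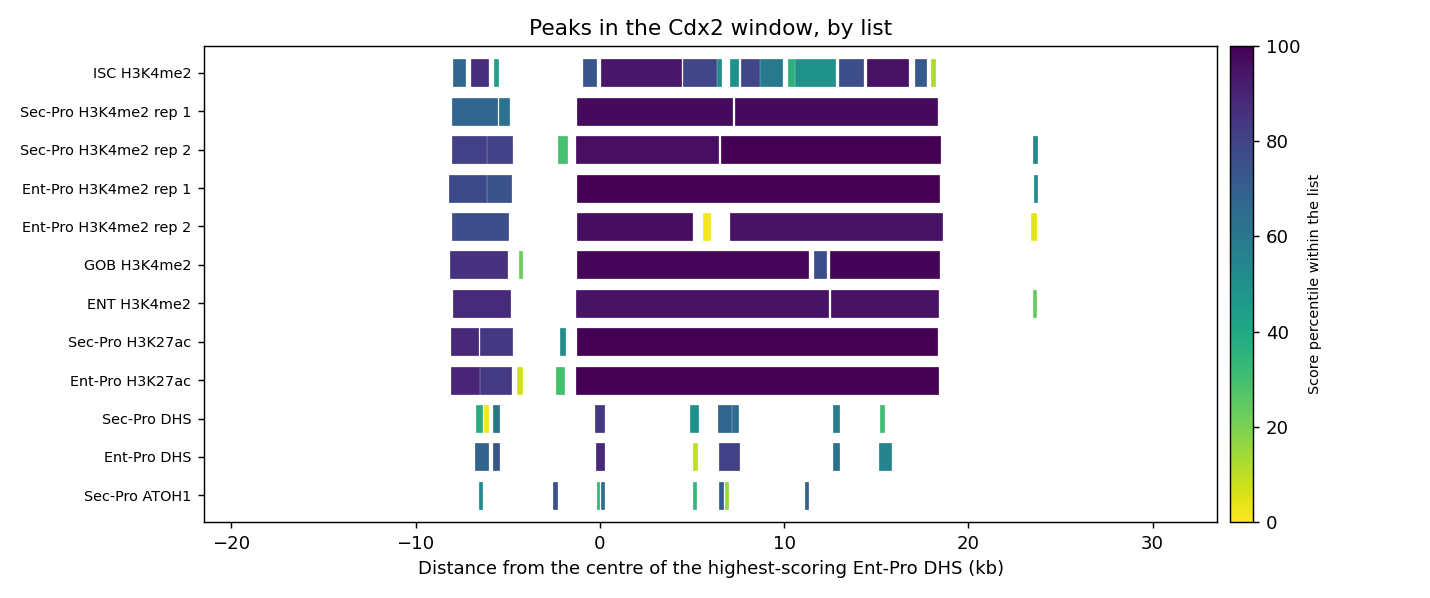
Peaks of the 12 lists in the Cdx2 window, 1 row per list, by distance from the centre of the strongest Ent-Pro DHS (x axis, kb), coloured by score percentile within the list. The domain, 19847 bp long when the H3K4me2 lists are joined, spans nearly the same stretch in every H3K4me2 and H3K27ac row. It is 1 peak in Ent-Pro replicate 1 and in both H3K27ac rows. The ISC row shows it in 13 pieces and the other rows in 2 or 3. Peaks have a thin outline that makes the narrowest ones visible.

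Hnf4a had no single domain but separate regions spread over the 120 kb, with gaps. The 10 kb from 163385000 to 163394999 held no H3K4me2 peak in ISC or the progenitors, 146 bp in GOB and 1003 bp in ENT. The region with the highest mean percentile, 94.8, ran from 163371890 to 163378332. Its percentile was 97.6 in ISC, 93.3 and 91.5 in Sec-Pro, 96.2 and 88.4 in Ent-Pro, 97.1 in GOB and 99.1 in ENT. Peaks covered 6115 to 6366 bp of it in every H3K4me2 list but ISC, which covered 3193 bp. H3K27ac covered 6198 bp (Sec-Pro) and 6330 bp (Ent-Pro) of it, both at percentiles near the top of their lists (98.9 and 99.2). The widest Ent-Pro H3K27ac peak of the window was here, from 163372003 to 163378352. In Sec-Pro the widest H3K27ac peak lay elsewhere, from 163400366 to 163405963, at 5598 bp.

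The longest Hnf4a region ran from 163328594 to 163340313, at 11720 bp, the 108th longest of the genome. Peaks covered 60.4% of it in ISC, 83.3% and 95.7% in Sec-Pro, 95.6% and 84.6% in Ent-Pro, 82.3% in GOB and 77.6% in ENT. It was most broken up in ISC, with 11 peaks, and in ENT, with 9. H3K27ac covered less of it, 65.8% in Sec-Pro and 56.0% in Ent-Pro. A further region, from 163363007 to 163368773, had percentiles of 76.5 in ISC, 84.5 and 86.0 in Sec-Pro, 86.6 and 75.2 in Ent-Pro, 84.5 in GOB and 94.4 in ENT.

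RefSeq lists 2 starts for Hnf4a in the promoter table, and the gene is known to be transcribed from alternative promoters, so both upstream sequences are shown. They are the 250 bases before each start, on the plus strand of GRCm38.p6, at chr2:163506607-163506856 and chr2:163546905-163547154. Capitals mark CANNTG.
Hnf4a first start: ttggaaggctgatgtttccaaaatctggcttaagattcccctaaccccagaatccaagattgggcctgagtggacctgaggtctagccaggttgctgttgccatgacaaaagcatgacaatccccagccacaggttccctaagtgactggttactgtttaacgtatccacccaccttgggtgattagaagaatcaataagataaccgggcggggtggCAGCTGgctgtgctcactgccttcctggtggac
Hnf4a second start: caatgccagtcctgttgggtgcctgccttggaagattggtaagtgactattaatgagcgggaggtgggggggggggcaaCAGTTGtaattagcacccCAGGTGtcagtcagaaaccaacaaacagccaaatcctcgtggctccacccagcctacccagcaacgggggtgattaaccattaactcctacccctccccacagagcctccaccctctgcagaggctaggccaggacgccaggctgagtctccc
The first holds CAGCTG, beginning 33 bases before the start. The second holds CAGTTG and CAGGTG, beginning 171 and 153 bases before it, and no CAGCTG. These starts are 40298 bp apart in GRCm38.p6. The centres of a pair of DHS shared by both progenitors, at 163332417 and 163372780 in mm9, are 40337 bp apart, the nearest to that spacing among the 15 pairs of shared Hnf4a sites. These lie in the longest and the highest-ranked H3K4me2 region. The builds differ, and whether the sites lie at the starts was not tested.

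Open chromatin at Hnf4a differed in number between the lists. Sec-Pro had 6 DHS peaks and Ent-Pro 14, covering 1951 and 4238 bp. All 6 Sec-Pro peaks had an Ent-Pro counterpart. In Ent-Pro 8 of 14 had no Sec-Pro counterpart, against 29.8% of its whole list. Most of those were weak. The strongest lay at 163378258 to 163378591, with a score percentile of 71.2, and the other 7 had percentiles between 4.08 and 42.0. The whole DHS list was longer in Ent-Pro, with 38595 peaks against 31980 in Sec-Pro. Sec-Pro minus Ent-Pro went from -8 peaks to -1 with the upper 50% of each list by score, and to -6 with lists of equal length. The shared sites with the highest scores lay at 163307261 to 163307741, with percentiles of 63.3 in Sec-Pro and 71.4 in Ent-Pro, at 163332417 to 163332825, with 62.4 and 65.7, and at 163372780 to 163373136, with 59.2 and 73.6.

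Goblet cells carried H3K4me2 at Hnf4a over a stretch where enterocytes had no peak. GOB had 3 peaks there, from 163316380 to 163317617 (1238 bp, percentile 75.9), from 163317687 to 163320601 (2915 bp, percentile 77.7) and from 163320680 to 163320925 (246 bp, percentile 25.6). ENT had none between 163308071 and 163328932, a gap of 20.9 kb. Sec-Pro replicate 2 (DBZ) and Ent-Pro replicate 1 each had 3 smaller peaks in the stretch, while ISC, Sec-Pro replicate 1 (Rbpj-/-) and Ent-Pro replicate 2 had none. The stretch was thus not confined to the secretory lists, and its replicates were split in both progenitors. Among the progenitor lists the split went with the kind of list, and in Sec-Pro also with how Notch was blocked. Sec-Pro replicate 2 and Ent-Pro replicate 1 had a shortest peak of 146 bp and held 92279 and 85881 peaks. Sec-Pro replicate 1 and Ent-Pro replicate 2 had a shortest peak of 200 bp and held 63293 and 64138. ISC, GOB and ENT also had a shortest peak of 146 bp, with 68407, 86922 and 88489 peaks, and of these only GOB had peaks there. The cause of the split was not tested. H3K27ac had 1 weak peak in Sec-Pro, at percentile 18.0, and none in Ent-Pro. A DHS from 163318221 to 163318521 was shared by both progenitors, with percentiles of 41.1 and 36.0.

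The last 30 kb of the Hnf4a window, from 163395000 to 163424999, held more H3K27ac than H3K4me2 in the progenitors. H3K27ac covered 77.2% of it in Sec-Pro and 74.7% in Ent-Pro. H3K4me2 covered 24.2% and 28.0% in the Sec-Pro replicates, 37.7% and 28.8% in Ent-Pro, 48.9% in GOB, 52.4% in ENT and 9.07% in ISC. The mature lists stood above all 4 progenitor lists there. DHS covered 0.713% of the stretch in Sec-Pro and 2.37% in Ent-Pro, and no ATOH1 peak lay in it. RefSeq places Ttpal after Hnf4a, and whether this stretch belongs to either gene was not tested.

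**Figure D3:**
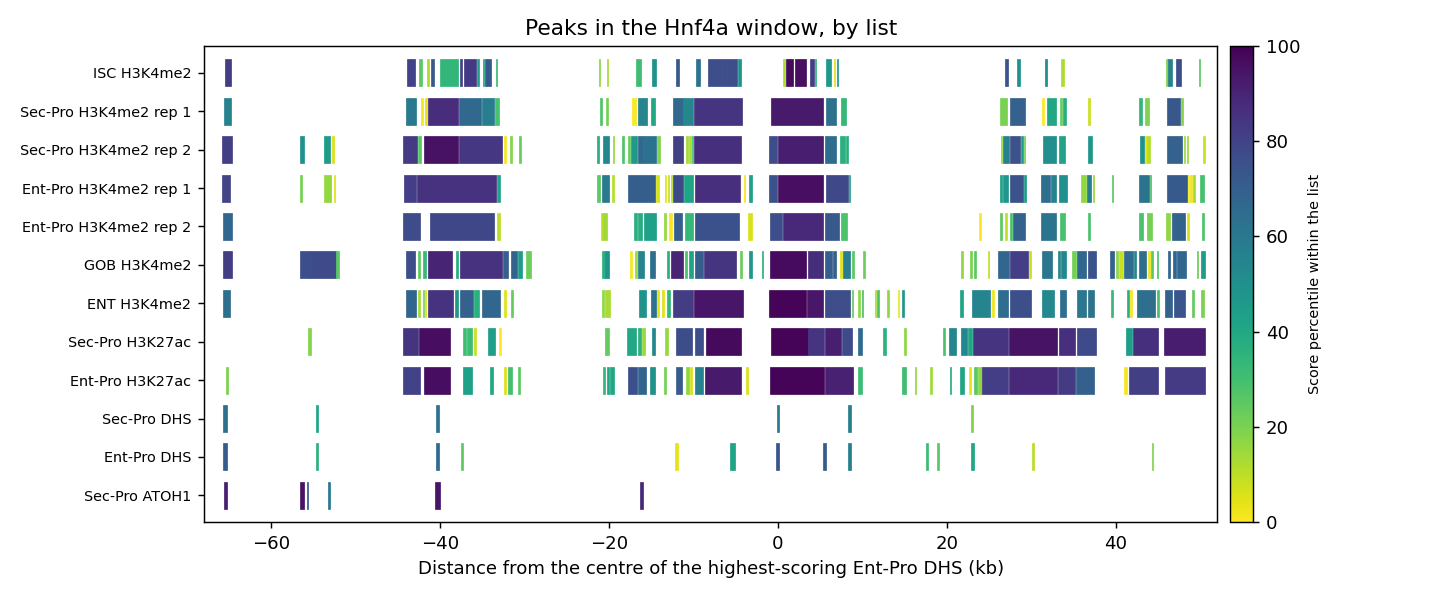
Peaks of the 12 lists in the Hnf4a window, 1 row per list, by distance from the centre of the strongest Ent-Pro DHS (x axis, kb), coloured by score percentile within the list. GOB has 3 peaks between 163316380 and 163320925, which is part of a gap of 20.9 kb in the ENT row. H3K27ac covers 77.2% (Sec-Pro) and 74.7% (Ent-Pro) of the last 30 kb. Peaks have a thin outline that makes the narrowest ones visible.

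Cdx1 combined a shared central domain with many small peaks that goblet cells had and enterocytes lacked, some of them also found in ISC or a progenitor list. The domain ran from 61190421 to 61200151 on chromosome 18, at 9731 bp the 228th longest region of the genome. Peaks covered 66.7% of it in ISC, 81.8% and 94.4% in Sec-Pro, 98.5% and 92.1% in Ent-Pro, 87.3% in GOB and 74.9% in ENT. Both Ent-Pro libraries had it as 1 peak, of 9583 and 8959 bp, and the other lists had 3 to 6 pieces. Its mean score percentile was 95.7. The score rank ran from 148 of 92279 in Sec-Pro replicate 2 to 6146 of 64138 in Ent-Pro replicate 2. In Sec-Pro replicate 1 it was 4012 of 63293. H3K27ac covered 71.1% of the domain in Sec-Pro and 95.6% in Ent-Pro. The widest H3K27ac peak of Ent-Pro, from 61190255 to 61198263 (8009 bp), lay in it, and that of Sec-Pro, from 61176095 to 61180673 (4579 bp), lay outside it.

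A region from 61172373 to 61174546 had percentiles of 80.4 in ISC, 83.5 and 88.4 in Sec-Pro, 92.2 and 90.2 in Ent-Pro, 90.1 in GOB and 87.2 in ENT. One from 61184001 to 61187380 had 66.5 in ISC, 75.3 and 78.8 in Sec-Pro, 76.1 and 76.0 in Ent-Pro, 83.9 in GOB and 81.7 in ENT. Its H3K27ac ranked higher, at percentiles of 97.9 in Sec-Pro and 92.1 in Ent-Pro. The H3K4me2 lists differed by less than 20 percentage points at each of these regions. They were chosen for a high mean percentile over the same lists, so this does not show that the populations are alike. The next region by rank ran from 61175964 to 61179578 and spread wider. Its percentiles were 45.9 in ISC, 67.4 and 81.9 in Sec-Pro, 83.5 and 79.5 in Ent-Pro, 88.9 in GOB and 80.5 in ENT.

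The 2 strongest DHS sites of Cdx1 were shared. That at 61195235 to 61196240, within the domain, had scores of 96.7 in Sec-Pro and 83.6 in Ent-Pro, and that at 61173527 to 61174069 had 57.1 and 59.9. Of the other 5 sites, 2 appeared in Sec-Pro alone, at 61202182 and 61216689 (percentiles of 16.4 and 8.81). The other 3 appeared in Ent-Pro alone, the highest at 61165298 (percentile 36.1). All 5 ranked below both shared sites. Sites without a counterpart were thus 2 of 4 Sec-Pro and 3 of 5 Ent-Pro peaks, against 14.6% and 29.8% of the whole lists.

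**Figure D4:**
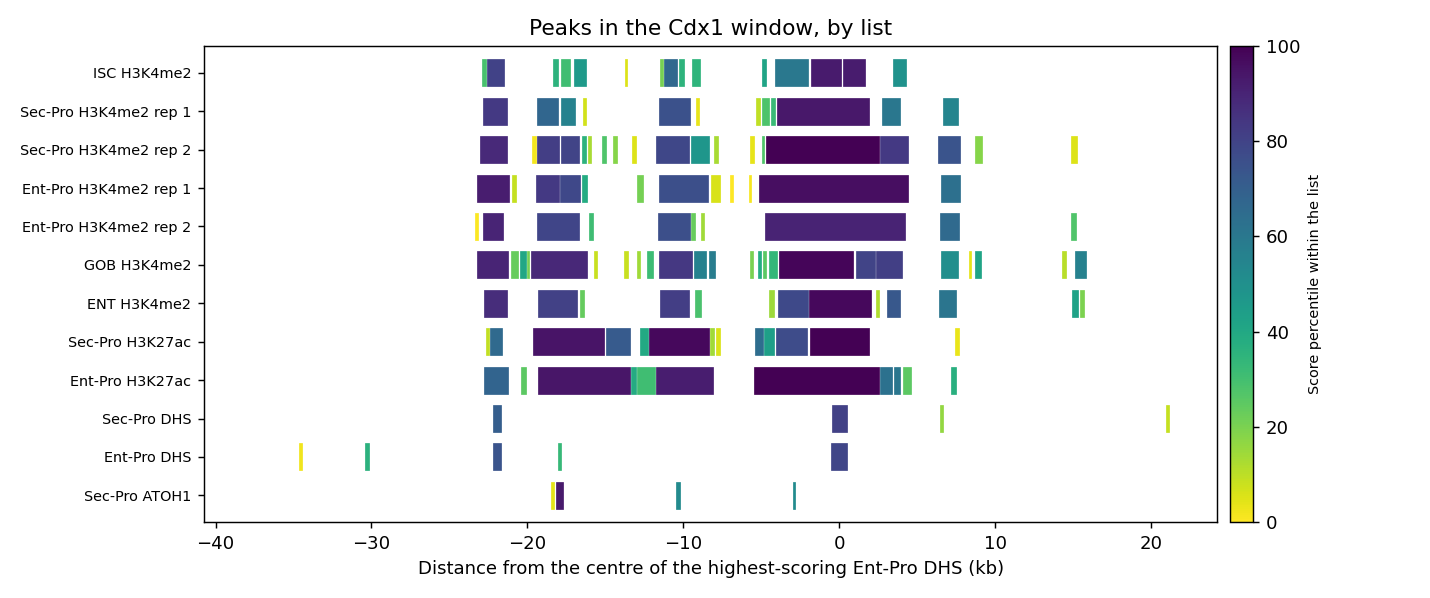
Peaks of the 12 lists in the Cdx1 window, 1 row per list, by distance from the centre of the strongest Ent-Pro DHS (x axis, kb), coloured by score percentile within the list. The central domain appears in every H3K4me2 row, and the GOB row has 24 peaks against 13 in ENT. Peaks have a thin outline that makes the narrowest ones visible.

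At Cdx1 the H3K4me2 of goblet cells covered more than that of enterocytes. GOB had 24 peaks over 21869 bp and ENT 13 over 15496 bp. Of the GOB peaks, 14 of 24 had no ENT counterpart, and no ENT peak lacked a GOB one. The 14 were narrow, 146 to 422 bp, with a median percentile of 21.9, and 1 passed 50 (61187409 to 61187757, percentile 58.1). At Hnf4a, 15 of 64 GOB peaks had no ENT counterpart and 10 of 50 ENT peaks no GOB one. At Cdx2 the numbers were 1 of 5 and 1 of 4. Over all windows this was 30 of 93 GOB peaks and 11 of 67 ENT peaks, against 24.8% and 29.2% of the whole lists. None of the 11 ENT peaks passed percentile 50, and 4 of the GOB peaks at Hnf4a did, the wider 2 of the stretch described above and those at 163406155 (53.6) and 163415106 (54.8). Each population had 1 library, so no test was possible.

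The mean covered length of secretory and enterocyte progenitors differed by less than the SD between replicates at every locus, which does not show that they are alike. At Cdx1 H3K4me2 covered 15180 and 21026 bp in Sec-Pro and 20620 and 17462 bp in Ent-Pro. At Cdx2 it covered 22367 and 23539 bp against 23092 and 21476 bp, and at Hnf4a 36257 and 43277 bp against 47728 and 39289 bp. The groups overlapped at every locus. The means ± SD were 18103 ± 4134 bp for Sec-Pro and 19041 ± 2233 bp for Ent-Pro at Cdx1, 22953 ± 829 and 22284 ± 1143 bp at Cdx2, and 39767 ± 4964 and 43509 ± 5967 bp at Hnf4a (n = 2 each). Exact two-sided permutation tests over libraries gave p = 1 at Cdx1, 0.667 at Cdx2 and 0.667 at Hnf4a, where the smallest p this design allows is 0.333. The lists also differed in their shortest peak, 146 bp for Sec-Pro replicate 2 with Ent-Pro replicate 1, and 200 bp for the other pair. Within the lists of 146 and of 200 bp, Sec-Pro minus Ent-Pro was 406 and -2282 bp at Cdx1, 447 and 891 bp at Cdx2, and -4451 and -3032 bp at Hnf4a. The sign was thus the same within both kinds of list at Cdx2 and Hnf4a and opposite at Cdx1, with 1 library of each progenitor per kind and no test. Leaving out 1 library reversed the sign at each locus (without Sec-Pro replicate 1 or Ent-Pro replicate 1 at Cdx1, Ent-Pro replicate 2 at Cdx2 and Ent-Pro replicate 1 at Hnf4a). Each such omission also left the lists of 146 and of 200 bp unbalanced between the groups.

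Regions found in each Sec-Pro list but no Ent-Pro list numbered 0 of 82, against 0.450% of the regions of the genome. The reverse held for 2 of 82, against 0.759%. Both lay at Hnf4a, from 163359437 to 163359697 and from 163369399 to 163369903, and were weak, with percentiles of 4.73 and 15.7 at the first and 43.7 and 5.98 at the second. H3K27ac peaks of Sec-Pro lacked an Ent-Pro counterpart in 6 of 52 cases, against 20.2% of the list, and those of Ent-Pro lacked a Sec-Pro one in 14 of 55, against 22.6%. At Cdx1 this included 5 of 11 Ent-Pro peaks.

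Overlap of whole outlines was measured by the Jaccard index (bases in both lists over bases in either). Among the progenitor H3K4me2 lists, it was higher over the whole lists between Sec-Pro and Ent-Pro with the same shortest peak (0.752 and 0.742) than between replicates of Sec-Pro (0.654) or Ent-Pro (0.688). At Hnf4a the order was the same, with 0.796 and 0.767 against 0.741 and 0.749. At Cdx2 it was not, with 0.956 (146 bp) and 0.886 (200 bp) against 0.934 and 0.896, nor at Cdx1, with 0.787 and 0.765 against 0.695 and 0.770. For Sec-Pro and Ent-Pro H3K27ac it was 0.679 over the whole lists, 0.767 at Cdx1, 0.963 at Cdx2 and 0.816 at Hnf4a. Between GOB and ENT it was 0.654 over the whole lists, 0.662 at Cdx1, 0.950 at Cdx2 and 0.632 at Hnf4a. For the DHS lists it was 0.687 over the whole lists, 0.558 at Cdx1, 0.757 at Cdx2 and 0.424 at Hnf4a. By this index Cdx2 was thus the most alike of the 3 loci in all of these pairs. The index counts bases, and most H3K4me2 bases at Cdx2 lay in its long domain (19654 of 23092 bp in Ent-Pro replicate 1). Whether peak width accounts for the order of the loci was not tested. In DHS only Cdx2 lay above the whole lists. Hnf4a was the least alike in DHS and between the mature populations.

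ATOH1 peaks lay at all 3 loci, 4 at Cdx1, 8 at Cdx2 and 6 at Hnf4a. Per 100 kb this was 6.15, 14.5 and 5.00. Among consecutive stretches of the length of each window, 97.8%, 99.8% and 97.5% held fewer. No ATOH1 peak at all lay in 80.4%, 82.4% and 71.5% of those stretches. The 18 peaks differed widely in score, from percentile 4.28 to 95.0. Each was compared with the chromatin of the 11 other lists.

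The 2 highest-scoring ATOH1 peaks of the 18 lay at Hnf4a. That at 163316401 to 163316809 had a score of 38.1, rank 762 of 15240, and lay under the goblet H3K4me2 absent from ENT. H3K4me2 peaks of Sec-Pro replicate 2 (percentile 49.2) and Ent-Pro replicate 1 (percentile 20.4) also overlapped it. The next lay at 163332333 to 163332890 (score 34.9, rank 880, the widest of the 18 at 558 bp). Weaker ones lay at 163307334 to 163307728 (percentile 91.5, rank 1292) and 163356678 to 163356956 (score 21.8, rank 1743). Those at 163332333 and 163307334 overlapped DHS shared by both progenitors. The remaining Hnf4a peaks, at 163317142 to 163317340 (percentile 72.3) and 163319672 to 163319876 (percentile 59.8), also lay under the goblet stretch. No other H3K4me2 list had a peak over that at 163317142. Sec-Pro replicate 2 (percentile 45.0) and Ent-Pro replicate 1 (percentile 16.2) had H3K4me2 over that at 163319672.

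At Cdx1 the highest ATOH1 peak, from 61177574 to 61178014, had a score of 31.5 and rank 1037, between the second and the next of the Hnf4a peaks. It overlapped a weak DHS (61177679 to 61177878, percentile 32.9) found in Ent-Pro, from Atoh1-/- mice, and not in Sec-Pro. The other 3 Cdx1 peaks lay at 61177258 to 61177441 (percentile 4.28), 61185282 to 61185514 (52.6) and 61192786 to 61192916 (52.3), with no DHS of either progenitor. At Cdx2 the highest, from 148108959 to 148109170, had a score of 11.4 and rank 3840. It lay outside both the domain and any H3K4me2 peak. Only an Ent-Pro H3K27ac peak overlapped it, in part and at percentile 30.0. Of the other 7, 6 lay inside the domain. They lay at 148111312 to 148111459 (33.6), 148111558 to 148111728 (63.5), 148116536 to 148116675 (34.0), 148117922 to 148118184 (71.4), 148118246 to 148118427 (15.8) and 148122605 to 148122772 (69.0), with score percentiles in brackets. The 1 outside it lay at 148104913 to 148105096 (52.3).

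Among the 18 peaks, 8 overlapped a Sec-Pro DHS, against 33.9% of all ATOH1 peaks, and 9 an Ent-Pro DHS, against 37.0%. The Sec-Pro number was 0 of 4 at Cdx1, 6 of 8 at Cdx2 and 2 of 6 at Hnf4a. Under a peak of all 7 H3K4me2 lists lay 9 of 18, against 33.1%. In GOB but not ENT lay 3 of 18, against 9.14%, and all 3 were at Hnf4a in the stretch described above. None lay under ENT but not GOB, against 1.37%. All 4 Cdx1 peaks were under all 7 H3K4me2 lists, while at Cdx2 3 of 8 and at Hnf4a 2 of 6 were. Peaks of 1 stretch are not replicates, and the ATOH1 list came from 1 library.

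**Figure D5:**
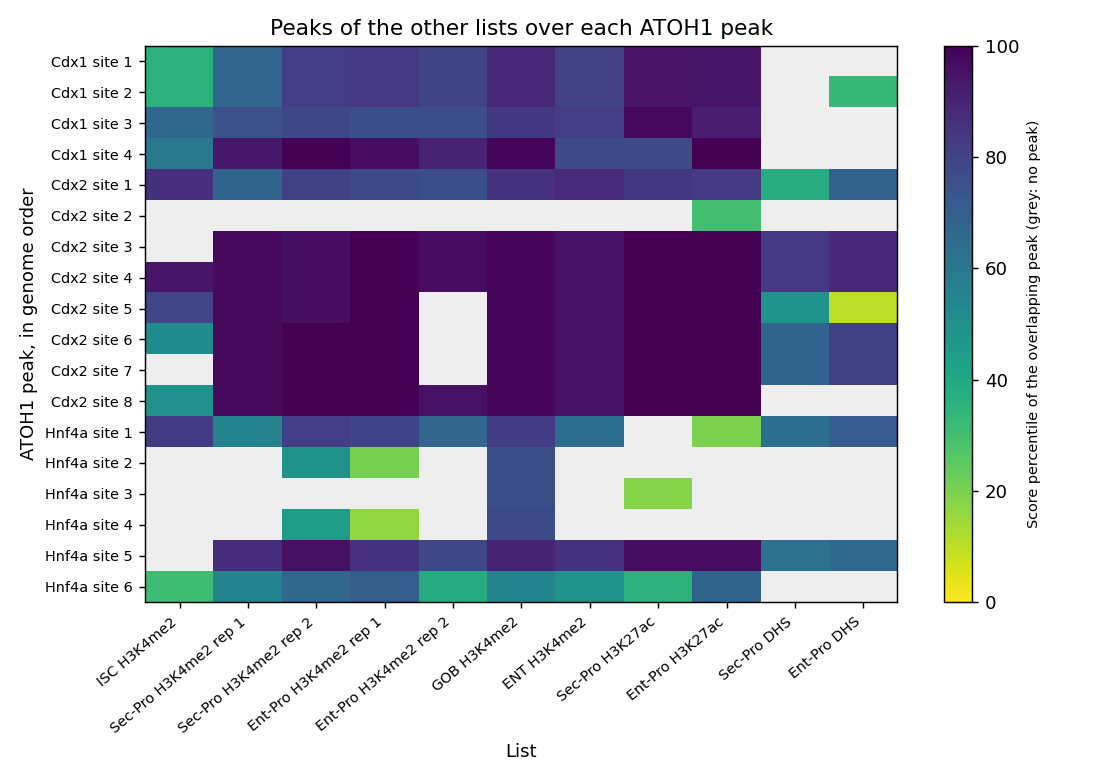
Chromatin at the 18 ATOH1 peaks (rows, by locus and order along the chromosome) in the 11 other lists (columns), coloured by the score percentile of the overlapping peak, with grey cells where no peak overlaps. The 4 Cdx1 peaks have no Sec-Pro DHS, 6 of 8 Cdx2 peaks have one, and 3 of 6 Hnf4a peaks have H3K4me2 in GOB and not in ENT.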

How the data were processed

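Peak lists of 12 of the 15 samples were used, and 3 input samples were not analysed here. The submitters' processing notes name CASAVA 1.7, Bowtie 0.12.7, MACS2 and the mm9 build, with no parameters. The authors deposited each list with a peak's position, name and an unnamed score, which served for ranks within that list only. Read depth is unknown. The shortest peak differed between H3K4me2 lists (146 or 200 bp). Peaks that overlapped a window by 1 bp were kept, and those of the 7 H3K4me2 lists were joined into regions where they overlapped. Python 3.11.15, NumPy 2.4.6, SciPy 1.17.1 and matplotlib 3.10.9 were used. Overlap counts were tested on simulated data. The 3 regions of highest mean percentile in each window, all ATOH1 peaks, the 3 highest DHS of each progenitor, the widest H3K27ac peaks, and regions specific to 1 progenitor or, over percentile 50, to 1 mature list were named by rule. Other regions were named after their values were seen. Covered length was tested by exact permutation over libraries. Sequences came from RefSeq, GRCm38.p6, where Cdx2 (1) and Hnf4a (2) matched by symbol. Peaks were not linked to genes, so populations were not checked against markers. Members and lists were chosen with earlier results of these data known.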

Additional observations from a re-analysis of the deposited data

How the results depend on the processing

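Across 18 results, 10 of 93 alternatives reversed the sign and 10 more moved a value that had no test. The other 73 kept the sign, or stayed within 1.5 times where no test was made, but not always the size. The Cdx1 progenitor difference, for example, was -2133.5 bp with the upper 50% by score. Of the 93, 3 were added after seeing the data and left out ISC. For H3K4me2 covered length, Sec-Pro minus Ent-Pro, leaving out 1 library gave -3861 to 1985 bp at Cdx1 (reported as -938), -139 to 1477 bp at Cdx2 (reported as 669) and -7961 to 478 bp at Hnf4a (reported as -3741.5). At Cdx1 it was also 959 bp with peaks within 1 kb merged and 406 bp with the lists whose shortest peak was 146 bp. Merging within 1 kb moved GOB minus ENT to 9886 bp at Cdx1 (from 6373) and 657 bp at Cdx2 (from -398), and Sec-Pro minus Ent-Pro H3K27ac to -865 bp at Cdx2 (from -557) and -325 bp at Hnf4a (from 646). With the upper 50% by score that H3K27ac value was 129 bp at Cdx2 and 2113 bp at Hnf4a. DHS peaks, Sec-Pro minus Ent-Pro, were 0 at Cdx1 with the upper 50% or lists of equal length (from -1), and with the upper 50% -1 at Cdx2 (from 2) and -1 at Hnf4a (from -8). Regions with a peak in all 7 lists were 2 at Cdx1 when joined within 1 kb (from 4). At Hnf4a they were 3 with at least 50% of the region overlapped, 6 with the upper 50% and 7 when joined (from 13). ATOH1 peaks under a Sec-Pro DHS at Cdx2 numbered 4 with the upper 50% of the DHS list (from 6), and the other ATOH1 alternatives gave the reported counts. No paired analysis was possible because the Sec-Pro labels carry no replicate number to match those of Ent-Pro. Unknown depth limits every statement on a peak that a list lacks. The causes were not tested.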
